A study of Mus musculus with 20 samples.

Results

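Cytosolic ribosomal proteins are the protein part of the ribosome that translates nuclear-encoded mRNA. Their genes were taken here by name alone: every gene with a probe set annotated to a single symbol that reads Rpl, Rps, Rplp or Rpsp, then a number and at most 1 letter out of a, x, y and l. This gave 45 genes out of 18193 tested, of which 24 are named for the large subunit and 21 for the small subunit. Of the 45, 1 (Rps4l) is listed as a transcribed pseudogene. Each gene was represented by its probe set with the highest mean over all arrays, and the 45 genes had 98 probe sets in all. The gene table of assembly GRCm38.p6 holds 80 symbols of this form, so the set is not the complete ribosome. A further 110 probe sets name a ribosomal protein together with other symbols, often pseudogenes, and were not assigned to a gene.

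The high-fat group was 10 male mice of the inbred strain C57BL/6J, given a diet with 45% of its energy as fat, and the low-fat group was 10 such mice kept on a diet with 10% of its energy as fat. All 20 mice were bought at 3 weeks of age, spent their first week on the low-fat diet, ate their assigned diet for 4 weeks, were 8 weeks old per the labels and were killed on day 30 after a 16 h fast. The labels name no genetic change in either group, and each liver was measured on its own Affymetrix 3′ expression array. Further high-fat groups of the study received an extract of maple syrup and are not analysed here. The comparison asks what a high-fat diet does to gene expression in the fasted liver.

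A ribosome holds 1 copy of most of its proteins, and their mRNAs are among the most abundant in a cell. In mammals these mRNAs begin with a run of pyrimidines, the 5′ TOP element, through which mTOR signalling, driven by feeding and insulin, controls their translation, so that protein output can move while mRNA stays level. Their promoters mostly lack a TATA box, and several bind ETS family factors and YY1.

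The deposited values are probe set scores that run like log2 intensities in level, from 5.69 to 13.56 over these genes, but differ between arrays by far less than log2 intensities would. The pooled SD within diets had a median of 4.37e-06 score units over the 45 genes and 1.3e-05 over all genes. No fold change can be read from such scores. Sizes are given as the standardised difference (high-fat mean minus low-fat mean, over the SD within diets) with a 95% interval. Values of single mice are given in the same SD units, counted from the mean of the low-fat mice. The test was limma's moderated test over all 18193 genes with Benjamini-Hochberg adjustment and a threshold of 0.05. In pieces of liver, fewer cells of a type and less RNA per cell cannot be told apart.

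The promoters of the genes on which the results turn are shown first, as 90 bases from RefSeq on GRCm38.p6, running from 70 bases before the annotated start to 20 bases from it. Capitals mark CCGGAAG, a core that ETS factors bind, on either strand. They also mark CTTTC near the start, a pyrimidine run as at the cap of 5′ TOP mRNAs, on the mRNA-sense strand. Rpl10a and Rpl41 passed the test, Rpl12 and Rps6 had the next largest positive differences, Rps10 had the most negative difference of the small subunit, and Rplp0 is a marker of the group.
Rpl10a, first start, chr17:28328401-28328490, plus strand: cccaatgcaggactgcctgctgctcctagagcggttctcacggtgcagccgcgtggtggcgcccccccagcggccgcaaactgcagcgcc
Rpl10a, second start, chr17:28328495-28328584, plus strand: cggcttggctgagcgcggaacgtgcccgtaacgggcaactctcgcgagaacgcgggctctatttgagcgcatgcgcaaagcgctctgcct
Rpl41, chr10:128549149-128549238, minus strand: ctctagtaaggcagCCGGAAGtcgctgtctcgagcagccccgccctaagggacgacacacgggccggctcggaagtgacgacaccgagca
Rpl12, chr2:32961642-32961731, plus strand: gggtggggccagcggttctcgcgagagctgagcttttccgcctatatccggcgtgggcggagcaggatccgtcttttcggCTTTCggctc
Rps6, chr4:86857348-86857437, minus strand: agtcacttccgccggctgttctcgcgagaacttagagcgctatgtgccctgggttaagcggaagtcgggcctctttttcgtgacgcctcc
Rps10, chr17:27635225-27635314, minus strand: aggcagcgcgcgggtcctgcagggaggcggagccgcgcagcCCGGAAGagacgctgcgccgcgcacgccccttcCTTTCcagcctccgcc
Rplp0, chr5:115559397-115559486, plus strand: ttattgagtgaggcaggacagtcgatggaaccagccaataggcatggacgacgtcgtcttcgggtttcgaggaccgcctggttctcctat

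Of the 45 genes, 39 had a promoter in the RefSeq table, which covers 250 bases before to 50 bases after the start of 27025 genes. In these 300 bases CCGGAAG, read on both strands, was present in 19 of 39 ribosomal protein genes (48.7%), against 9.93% of all genes. AAGATGG, a core of the YY1 site, was present in 17.9% of the ribosomal protein genes and 7.28% of all genes, again on both strands. CTTTC on the mRNA-sense strand, within 10 bases before to 30 bases after the start, was present in 12 of 39 (30.8%), against 5.69% of all genes. TATAAA, the TATA box core, was present in 12.8% of the ribosomal protein genes and 15.7% of all genes, on both strands. None of the motifs contains another, although a match of CCGGAAG and one of AAGATGG can share their AAG. A match says only that the letters are there.

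On the high-fat diet 1 large-subunit gene rose and 1 fell, and 0 of the 21 small-subunit genes passed limma's test (4 at an unadjusted p under 0.05). Rpl10a, which codes for the protein of the L1 stalk that contacts tRNA leaving the ribosome, was higher by 2.01 SD. Rpl41, which codes for a very short basic protein at the interface of the subunits, was lower by a standardised difference of -2.84. The 2 calls are 4.44% of the 45 genes, against 3.49% of all genes tested, 1.71% higher and 1.78% lower, so the share called was near that of all genes. Both calls lie among the 32 ribosomal protein genes with a mean score of 11 or more (6.25%), against 8.9% of all genes with such scores. At an unadjusted p under 0.05, 7 of 45 passed (15.6%), against 17.0% of all genes. Of these 4 were higher, against 8.94% of all genes, and 3 were lower, against 8.01%. Among the 32 genes scoring 11 or more, 4 passed at that level (12.5%), 1 higher and 3 lower, against 30.0% of all genes with such scores. Among the 13 dimmer genes 3 were higher and 0 lower. These shares were not tested against each other. The diets did not overlap in 0 of the 45 genes and in 0.275% of all genes. The SD within diets lay below the prior SD of 7.089e-06, towards which limma moves each gene's SD, in 30 of the 45 genes, against 27.6% of all genes. Without this moderation 2 of 45 passed as well.

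**Figure D1:**
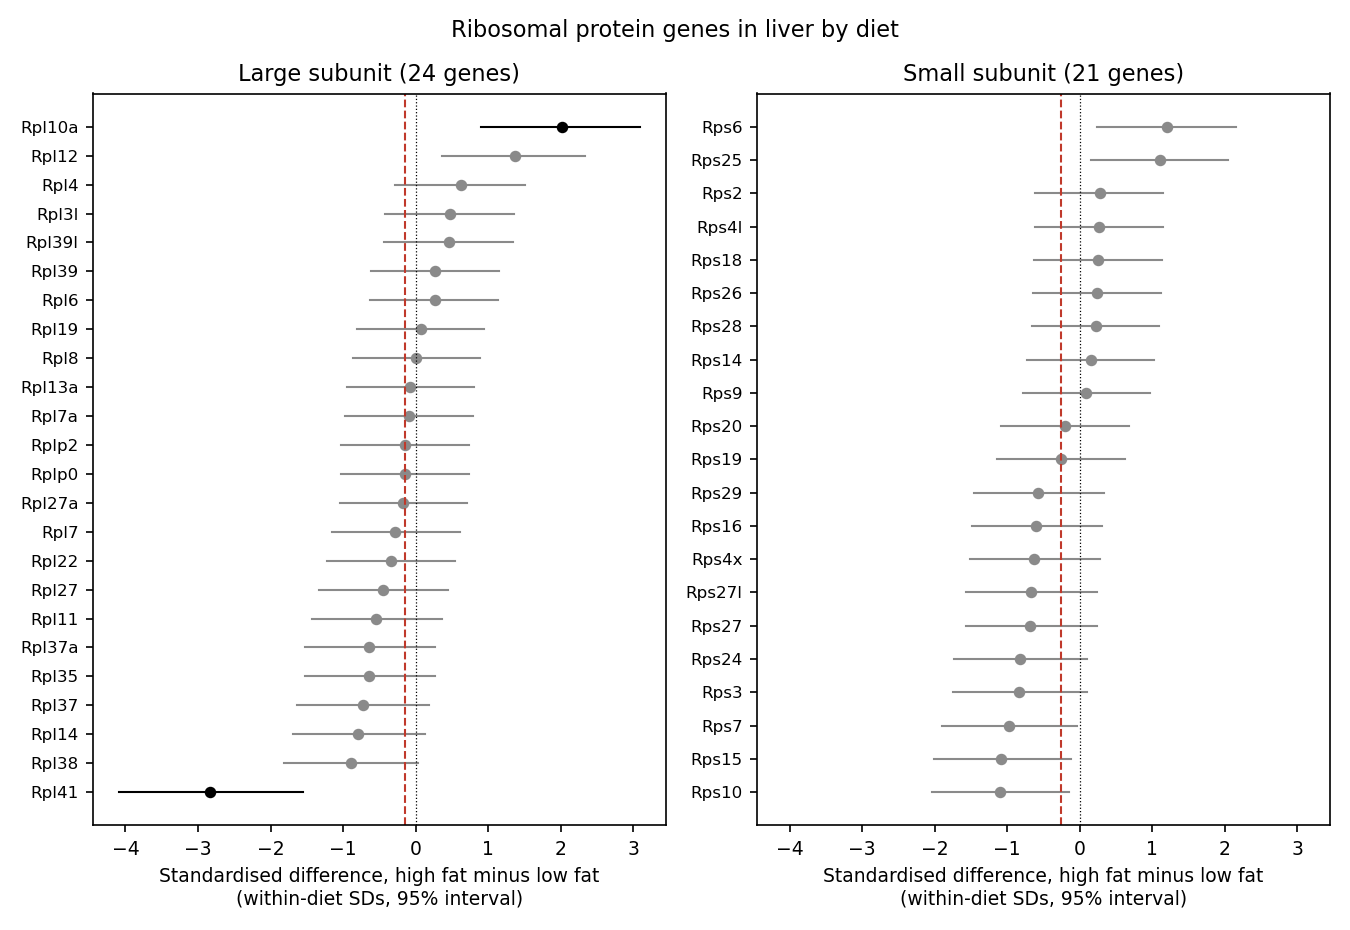
Standardised difference of each ribosomal protein gene, high fat minus low fat in within-diet SDs (x axis), with its 95% interval, for the large subunit (24 genes) and the small subunit (21 genes), 10 mice per diet. The dashed lines mark the medians, -0.15 for the large and -0.26 for the small subunit (0.23 and -0.02 without high-fat replicates 8 and 9), and Rpl10a at 2.01 and Rpl41 at -2.84 lie at the ends of the large subunit.

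Among large-subunit genes, Rpl10a (GRCm38.p6, chr17:28328471-28331033) had scores of 0.32, 2.38 and 2.91 SD units as the lowest, median and highest of the high-fat mice, against -2.06, 0.16 and 1.18 in low-fat mice. In 8 of 10 high-fat mice the score was above that of every low-fat mouse, and the high-fat mouse was higher in 91% of the 100 pairs of mice. The standardised difference was 2.01 (95% interval 0.90 to 3.09), with an adjusted p of 0.0145 in limma's test. With arrays centred on their medians it was -0.945, but those medians ranged from 6.5670156 to 6.5672015, against an SD of 9.59e-06 for Rpl10a. The sign under that centring therefore mostly follows the array medians and cannot decide the direction of this gene. With the score of the poly-A spike-in controls as a covariate the difference was 1.84 with an adjusted p of 0.0558 in limma's test. That spike-in score, the mean of 24 control probe sets for RNAs added at labelling, ran from -2.44 to 1.16 in high-fat mice and from 0.15 to 0.98 in low-fat mice. Rpl10a rests on 1 probe set, whose suffix marks that it reads several transcripts of the same gene.

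Rpl41 (chr10:128548110-128549168) had scores of -4.27, -2.75 and -1.32 in high-fat mice, against -1.64, -0.28 and 2.31 in low-fat mice, again as lowest, median and highest. In 9 of 10 high-fat mice the score was below that of every low-fat mouse, and the high-fat mouse was higher in 1% of pairs. Its standardised difference was -2.84 (95% interval -4.09 to -1.55, adjusted p = 0.00155 in limma's test). Rpl41 has 4 probe sets, and the next brightest, with a mean score of 9.59, was also lower (-2.49, adjusted p = 0.00555 over all probe sets). The other two, with mean scores of 7.10 and 6.21, gave 0.85 and 0.29 and did not pass. The brightest 3 carry a suffix that marks probes shared with other sequences, and the only one without it is the dimmest, at 0.29 with an adjusted p of 0.814 when such probe sets alone were tested.

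**Figure D2:**
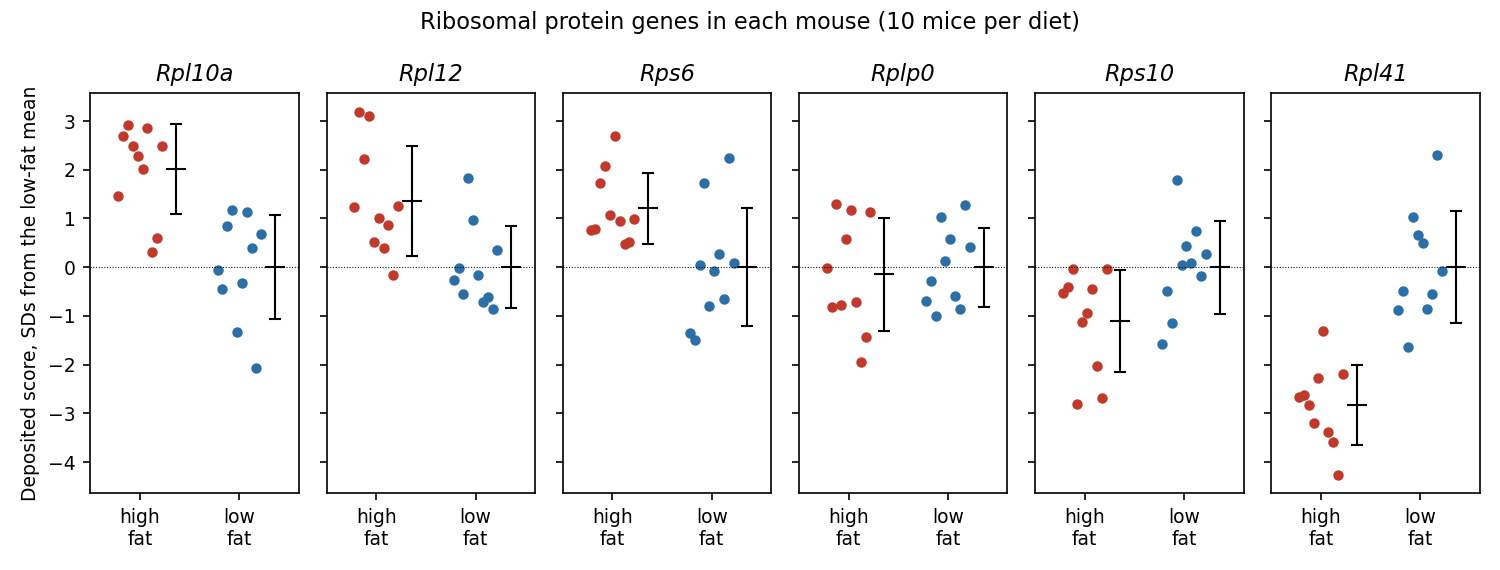
Deposited score of single ribosomal protein genes in each mouse, in SDs from the mean of the low-fat mice (y axis), with high-fat mice at the left and low-fat mice at the right of each panel, 10 mice per diet. High-fat mice run from 0.32 to 2.91 for Rpl10a and from -4.27 to -1.32 for Rpl41, against -2.06 to 1.18 and -1.64 to 2.31 in low-fat mice.

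Of the stalk that recruits translation factors to the large subunit, the measured genes Rplp0, Rplp2 and Rpl12 showed no call. Rplp1 is not among the 45 genes. Rpl12, which binds rRNA at the base of this stalk, had a dim probe set, with a mean score of 6.72 at the 41.6 percentile of all genes. In SD units its scores were -0.15, 1.12 and 3.19 in high-fat mice, against -0.86, -0.21 and 1.84 in low-fat mice. The diets overlapped, with 3 of 10 high-fat mice above every low-fat mouse, and the difference of 1.37 (95% interval 0.37 to 2.33) had an adjusted p of 0.093 in limma's test. Without low-fat replicate 4 it was 1.72 with an adjusted p of 0.0439, the only 1 of the 20 fits without 1 mouse in which Rpl12 passed. Under quantile normalisation Rpl12 turned to -2.22 and was called lower. Rplp0, the scaffold of the stalk and a frequent reference gene, had scores of -1.94, -0.37 and 1.31 in high-fat mice, against -0.99, -0.08 and 1.28 in low-fat mice. The groups lay over each other, with a difference of -0.15 (95% interval -1.03 to 0.73). Its partner Rplp2 gave the same -0.15.

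Of the other large-subunit genes, the most negative differences after Rpl41 were those of Rpl38 (-0.90), Rpl14 (-0.79), Rpl37 (-0.73), Rpl35 (-0.64) and Rpl37a (-0.64), with adjusted p-values of 0.394, 0.395, 0.431, 0.516 and 0.531 in limma's test. Rpl38 is known in mice for its part in the translation of Hox mRNAs, and Rpl35 lies at the exit of the peptide tunnel. The most positive after Rpl10a and Rpl12 were Rpl4 (0.62), a protein of the tunnel wall, and the paralogues Rpl3l (0.47) and Rpl39l (0.46), with adjusted p-values of 0.597, 0.671 and 0.676. Rpl3l is known from striated muscle and Rpl39l from testis, and their probe sets scored 5.93 and 6.38, at the 8.27 and 27.0 percentile of all genes. Rpl7a, the highest-scoring of the large-subunit probe sets, differed by -0.09.

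Among small-subunit genes, Rps6, the protein that S6 kinases phosphorylate downstream of mTOR, had the most positive difference. Its scores (chr4:86854099-86857367) were 0.47, 0.97 and 2.70 in high-fat mice, against -1.50, -0.01 and 2.24 in low-fat mice. The difference was 1.21 (95% interval 0.23 to 2.15) with an adjusted p of 0.162 in limma's test, and only 1 of 10 high-fat mice was above every low-fat mouse. The mean score of this probe set was 8.56, and the dimmer of the 2 probe sets of Rps6 gave -0.58. Rps25, which some viral RNAs need to start translation, had scores of -0.69, 1.20 and 2.67 in high-fat mice, against -0.87, -0.07 and 1.68 in low-fat mice, and a difference of 1.11 (adjusted p = 0.189). Its only probe set had a mean score of 7.31, at the 59.2 percentile of all genes.

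The most negative small-subunit differences were those of Rps10, Rps15, Rps7, Rps3 and Rps24. Rps10, which is ubiquitinated when ribosomes collide, had scores of -2.81, -0.73 and -0.03 in high-fat mice, against -1.58, 0.07 and 1.80 in low-fat mice. The groups overlapped, and the difference of -1.10 (95% interval -2.04 to -0.14) had an adjusted p of 0.264 in limma's test. Rps15, whose tail reaches the decoding site, had scores of -2.88, -0.93 and 0.23 in high-fat mice, against -1.38, -0.02 and 2.14 in low-fat mice, for a difference of -1.08 (adjusted p = 0.211). Rps7 gave -0.98 (adjusted p = 0.302), Rps3, an entry channel protein, gave -0.83 (0.390), and Rps24 gave -0.83 (0.376). Of the pair of paralogues Rps27 and Rps27l, both differed by -0.68, with adjusted p-values of 0.473 and 0.474. None of these 7 genes passed, and the intervals of Rps10, Rps15 and Rps7 did not include 0.

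Rps29 and Rps28, with the highest probe set scores of the small subunit, 13.56 and 13.04, differed by -0.58 and 0.22. Rps16, with the lowest score, 5.69, at the 2.96 percentile of all genes, differed by -0.60. Rps2 and Rps18 gave 0.27 and 0.25, and Rps4l, a relative of Rps4x that the gene table lists as a transcribed pseudogene, gave 0.27. Their adjusted p-values in limma's test ran from 0.544 for Rps16 upward. Scores of different probe sets do not compare the amounts of their transcripts.

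Taken gene by gene, 27 of 45 ribosomal protein genes had a difference below 0, against 47.5% of all genes. The median difference was -0.15 for the 24 large-subunit genes and -0.26 for the 21 small-subunit genes, against 0.04 over all genes. Of the 32 genes with a mean score of 11 or more, 21 lay below 0 (median -0.23), and of the 13 dimmer genes 6 did (median 0.27). Without high-fat replicates 8 and 9, 16 of 32 (median 0.07) and 5 of 13 (median 0.34) lay below 0, and the difference between brighter and dimmer genes was not tested. Over all genes with such scores, 50.7% lay below 0 (median -0.03). Centring every array on its median moved the median of all genes to -1.29, with 95% of genes below 0 and 83.0% of genes called. Under this centring 43 of the 45 ribosomal protein genes lay below 0 with a median of -1.34, 41 were called, and Rpl10a stood at -0.94. The subtracted array medians ran from 6.5670156 to 6.5672015, against a median SD within diets of 4.37e-06 for these genes. For genes with SDs this small the centred values mostly carry the array medians, so their signs and calls cannot decide a direction. The array medians were mostly higher in the high-fat group, at 6.5671411 or more in all but replicate 8. Low-fat arrays lay below that value in all but replicates 6 and 9. Quantile normalisation moved the median of all genes to -0.41 and left 17 of the 45 genes with any variation between arrays, with a median of -0.33 and 2 calls, against 8.59% of genes called. Rpl10a was not among them and Rpl41 gave -1.42 (adjusted p = 0.0526 in limma's test). Centring on standardised values left the median of all genes at 0.01 and that of the 45 genes at -0.21.

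The mean over the genes of a subunit varied more between high-fat mice, with SDs of 0.62 (large) and 0.70 (small), than between low-fat mice, with SDs of 0.41 and 0.39; this difference in spread was not tested. For the large subunit it was -1.17, 0.0009 and 0.55 SD units as the lowest, median and highest of the high-fat mice, against -0.52, -0.03 and 0.76 in low-fat mice. For the small subunit it was -1.35, -0.13 and 0.62 in high-fat mice, against -0.59, 0.03 and 0.65 in low-fat mice. High-fat replicates 8 and 9 were the lowest mice in both subunits, at -1.15 and -1.17 for the large and -1.30 and -1.35 for the small. In these 2 mice 39 and 38 of the 45 genes lay below the low-fat mean. The mean over all high-fat mice was -0.14 ± 0.62 for the large and -0.22 ± 0.70 for the small subunit (SD, n = 10), so its distance from the low-fat mean of 0 was smaller than the spread between mice. Without replicate 8 alone or 9 alone the median of the large subunit was 0.0011 or 0.0056. Without both replicates the median differences were 0.23 for the large and -0.02 for the small subunit, 21 of 45 genes lay below 0, and Rpl10a (2.78, adjusted p = 0.00536 in limma's test) and Rpl41 (-2.67, adjusted p = 0.00647) still passed. The spike-in scores of replicates 8 and 9, 0.71 and 0.15, lay within the range of the low-fat mice.

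**Figure D3:**
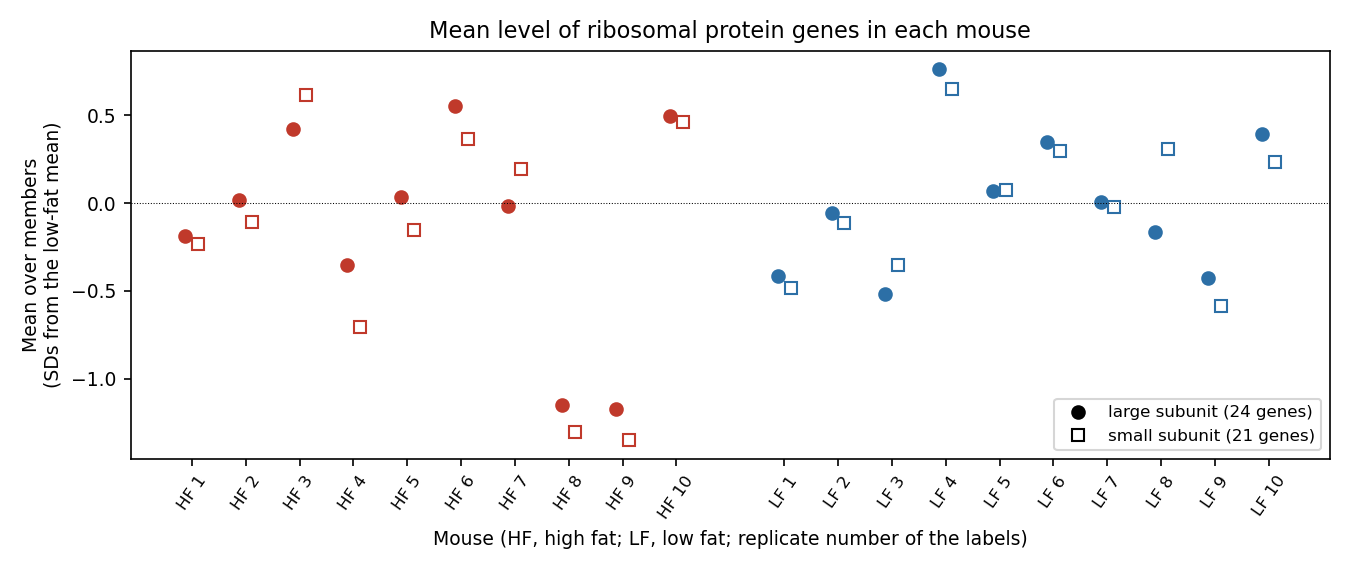
Mean over the ribosomal protein genes of each subunit in each mouse, in SDs from the low-fat mean (y axis), high-fat mice left of low-fat mice; filled circles are the large and open squares the small subunit. High-fat replicates 8 and 9 lie at -1.15 and -1.17 for the large and -1.30 and -1.35 for the small subunit, below all other mice.

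The 98 probe sets extend the picture beyond 1 per gene. Of these, 3 passed when all 45037 probe sets were tested, against 2.32% of all probe sets, and they belong to Rpl10a and Rpl41. Below 0 lay 66 of 98, with a median of -0.30 against 0.04 over all probe sets. Of the 67 with a mean score of 9 or more, 51 lay below 0 (median -0.51), and of the 31 dimmer ones 15 did (median 0.04). Over all probe sets 50.7% of those scoring 9 or more and 47.5% of the dimmer ones lay below 0. Probe sets of a gene share its transcript and so are not independent. These counts include high-fat replicates 8 and 9, the lowest mice in both subunits. Without those mice 21 of the 45 genes lay below 0, and 16 of the 32 genes scoring 11 or more did (median 0.07). Whether the probe sets still lean below 0 without them was not tested.

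Of the 22 genes with several probe sets, 11 had all of them on the same side of 0. Rpl35 had 6, of which the brightest 5 ran from -1.39 to -0.32 and the dimmest gave 0.36. Rps10 also had 6, of which the brightest 5 ran from -1.10 to -0.17 and the dimmest gave 1.31. In both genes the bright probe sets lay on one side and the dimmest on the other. Within genes, the residuals of the brightest probe set, after removal of the diet means, had a median correlation of 0.793 with the 34 other probe sets scoring 9 or more and of 0.0875 with the 19 dimmer ones, over the same 20 arrays. A suffix that marks shared or alternative targets was present on 69 of the 98 probe sets and on 32 of the 45 representatives. Among the 110 probe sets that name a ribosomal protein with other symbols, 2 passed, both lower, and 68 lay below 0 (median -0.21).

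**Figure D4:**
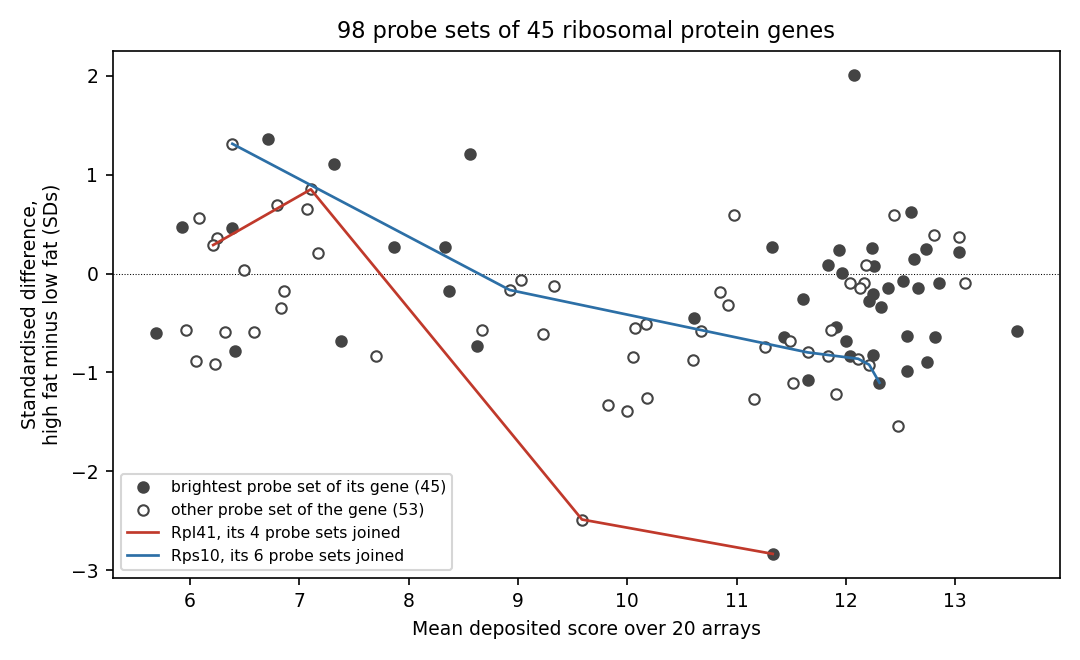
Standardised difference, high fat minus low fat in SDs (y axis), against the mean deposited score over 20 arrays (x axis) for the 98 probe sets of 45 ribosomal protein genes; filled and open points tell the representative of each gene from its other probe sets, and lines join the probe sets of single genes. Most bright points lie below 0 (51 of 67 with a score of 9 or more), and the 2 bright probe sets of Rpl41 lie at -2.84 and -2.49. High-fat replicates 8 and 9 are included, and the lean without them was not tested for probe sets.

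Ribosomal protein genes varied together between mice of the same diet. The median Pearson correlation of residuals over the 20 mice was 0.298 over the 276 pairs of large-subunit genes, 0.331 over the 210 pairs of small-subunit genes and 0.343 over the 504 pairs across the subunits, against 0.002 over all pairs of genes. It was 0.464 among the 32 genes scoring 11 or more and 0.0374 among the 13 dimmer genes, against 0.036 among all genes scoring 11 or more. The closest pairs were Rpl37 with Rpl27 (0.900), Rpl6 with Rpl8 (0.885), Rpl6 with Rpl7a (0.884), Rpl7 with Rpl13a (0.870), Rpl7a with Rpl8 (0.869) and Rps19 with Rps24 (0.847). Mitochondrial ribosomal proteins had a median of 0.312 among themselves and 0.0653 with the cytosolic ones. These correlations are descriptions, since all pairs share the same arrays.

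**Figure D5:**
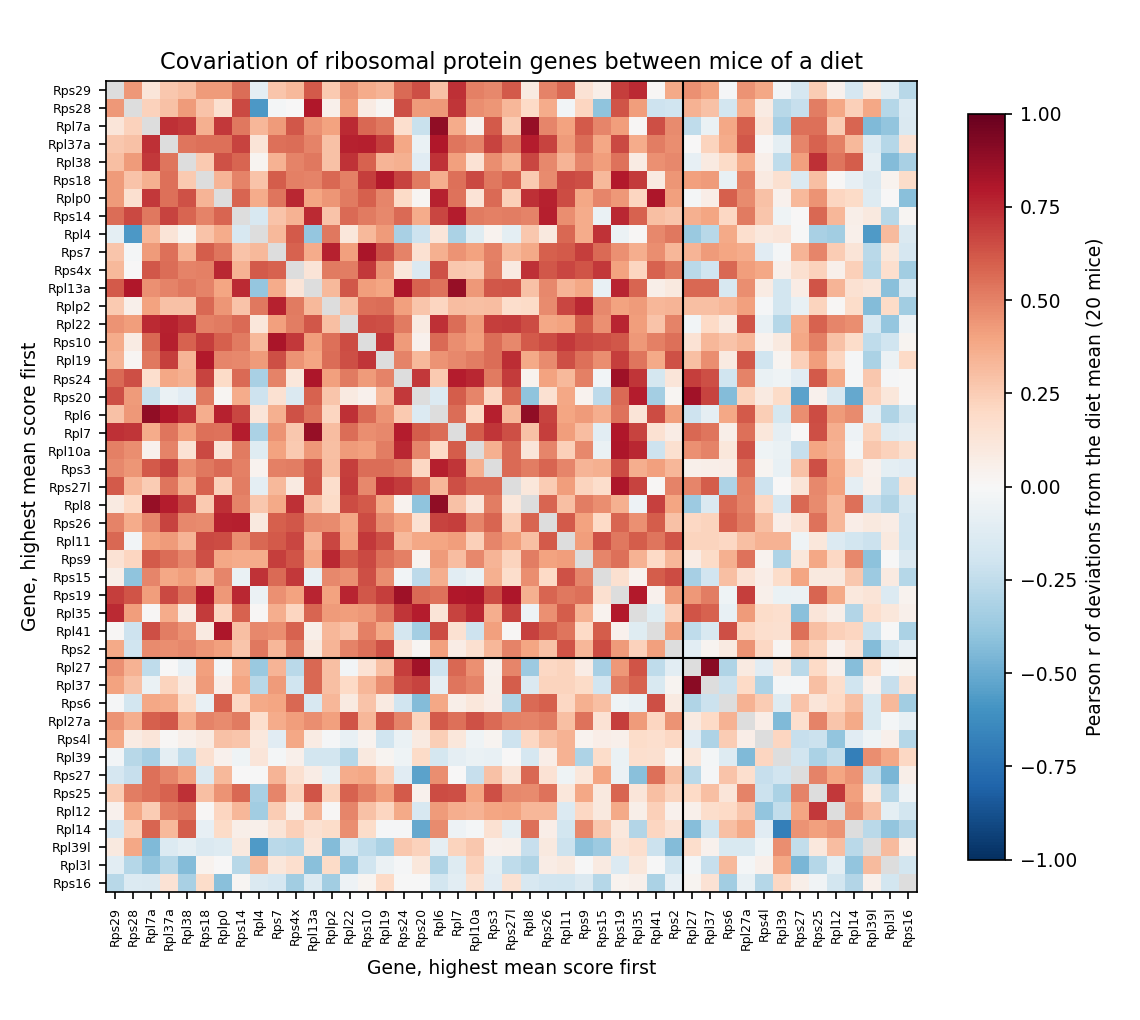
Pearson correlation of within-diet residuals over 20 mice for each pair of the 45 ribosomal protein genes, ordered on both axes by mean score with the highest first; the black lines set apart the 32 genes scoring 11 or more. Their block has a median of 0.464, and the block of the 13 dimmer genes has a median of 0.0374.

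The 5 genes whose residuals were most like those of Rpl10a over the 20 mice were Rps19 (0.805), Hspd1 (0.795), Acrbp (0.779), Abhd2 (0.768) and Acsl5 (0.767). Hspd1 codes for the mitochondrial chaperonin and was itself higher on the high-fat diet (2.11, adjusted p = 0.0115 in limma's test), while the other four did not pass. For Rpl41, looked at after its values were seen, they were Nedd8 (0.858), Srpr (0.836), Elob (0.825), Rplp0 (0.812) and Dad1 (0.811). Rpl10a and Rpl41, which moved in opposite directions with diet, had a residual correlation of -0.21.

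Around the ribosome, 12 of 211 measured genes of the wider translation machinery passed, 10 higher and 2 lower, or 5.69% against the 3.49% of all genes. Initiation factors gave 4 higher and 1 lower of 32 measured, with a median difference of 0.43. At an unadjusted p under 0.05, 9 were higher and 3 lower (37.5%, against 17.0% of all genes). Eif3a, the scaffold of the eIF3 complex, had scores of -0.33, 2.21 and 3.98 in high-fat mice, against -1.15, 0.12 and 0.90 in low-fat mice, and rose by 2.18 SD (adjusted p = 0.00832 in limma's test), but stood at -0.105 under quantile normalisation and -0.155 under array median centring. Its partner Eif3d, which can bind the mRNA cap, rose by 1.79 (adjusted p = 0.0282; -0.911 under array median centring), and another eIF3 subunit, Eif3h, was lower, at -1.80 (adjusted p = 0.0292). Eif2b4, a subunit of the exchange factor that recharges eIF2, rose by 2.06 (adjusted p = 0.0121; -0.0825 under quantile normalisation), and the RNA helicase Eif4a1 rose by 1.84 (adjusted p = 0.0236). Without high-fat replicates 8 and 9, Eif3d and Eif3h did not pass. Leaving out high-fat replicate 4, 6 or 10 or low-fat replicate 8 also ended the call of Eif3d (adjusted p up to 0.0527), and leaving out high-fat replicate 4 or low-fat replicate 5, 9 or 10 that of Eif3h (up to 0.0539).

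Of 12 elongation and termination factors 1 passed, the release factor Gspt1, which rose by 1.96 (adjusted p = 0.0158 in limma's test), but stood at -0.168 under quantile normalisation and -0.0215 under array median centring. The list median was 0.43. Ribosome biogenesis factors gave 2 higher and 0 lower of 43 (4.65%, against 3.49% of all genes), with 34 of 43 above 0 and a median of 0.64. At an unadjusted p under 0.05, 11 were higher and 1 lower (27.9%, against 17.0% of all genes). The 2 called were Bysl, which acts in making the small subunit (2.02, adjusted p = 0.0132), and Ebna1bp2, which acts in making the large one in yeast (2.10, adjusted p = 0.0112, but -0.645 under quantile normalisation and -0.957 under array median centring). In Bysl the high-fat mice scored 0.99, 1.98 and 3.65, against -1.40, 0.16 and 1.32 in low-fat mice. Of the 11 genes of RNA polymerase I and its factors, which make rRNA, 0 passed, with a median of 0.36, led by Polr1c (1.45, adjusted p = 0.0742) and Rrn3 (1.39, adjusted p = 0.0878). At an unadjusted p under 0.05, 3 of these 11 were higher (27.3%, against 8.94% of all genes) and 0 lower. Polr1c passed without low-fat replicate 7 (adjusted p = 0.0338) and Rrn3 without high-fat replicate 7 (adjusted p = 0.0454), for each gene in only 1 of 20 such fits. Polr1c changed sign under quantile normalisation and under array median centring.

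The mTOR list of 17 measured genes had 1 call, the mTOR inhibitor Tsc2, which was lower, at -1.85 (adjusted p = 0.0240 in limma's test; list median 0.58). Without high-fat replicates 8 and 9, Tsc2 did not pass. The 7 chaperones of new ribosomal proteins and nascent chains had 0 calls, with Naca (-1.37, adjusted p = 0.146) and Btf3 (-1.12, adjusted p = 0.202), which form the nascent polypeptide complex, the only 2 at an unadjusted p under 0.05. The 10 ribosome quality control genes had 0 calls (1 at an unadjusted p under 0.05), led by Ascc3 (1.01) and Hbs1l (-0.90). Of 4 measured ribosomal proteins whose symbols fall outside the naming rule 0 passed (2 at an unadjusted p under 0.05), with Rpl7l1 at 1.31 (adjusted p = 0.111) and Rpsa, a small-subunit protein, at 1.14 (adjusted p = 0.179). An unadjusted p under 0.05 was found for 17.0% of all genes and for 3 of the 17 mTOR genes, 2 higher and 1 lower.

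The 75 mitochondrial ribosomal proteins, which build the separate ribosome inside mitochondria, gave 3 higher and 0 lower, with a median of 0.31. The share called, 4.0%, was near the 3.49% of all genes. At an unadjusted p under 0.05, 13 were higher and 6 lower (25.3% of the 75). Of all genes 17.0% passed at that level, 8.94% higher and 8.01% lower. These shares were not tested against each other. The 3 calls were Mrpl17 (2.05, adjusted p = 0.0126 in limma's test), Mrpl24 (2.03, adjusted p = 0.0135) and Mrps27 (1.96, adjusted p = 0.0158). Under quantile normalisation Mrpl17 and Mrpl24 stood at -0.732 and -0.600, and under array median centring at -0.796 and -0.842. Their mean over genes was 0.25 ± 0.41 SD units in high-fat mice (SD, n = 10), against a low-fat mean of 0 with an SD of 0.65, so it lay within the spread between mice. Replicates 8 and 9, lowest for the cytosolic genes, stood at 0.44 and 0.26 here. The difference between the cytosolic and mitochondrial sets was not tested.

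Array medians ran from 6.5670156 to 6.5672015 over the 20 arrays, and 0 pairs of arrays held identical values. Every high-fat array but replicate 8 (6.5670519) had a median of 6.5671411 or more. Among low-fat arrays only replicates 6 and 9 (6.5672015 and 6.5671996) did. The array medians thus went along with diet, and the cause was not tested. The 3 probe sets of 18S rRNA, the RNA of the small subunit, differed by -0.08, 0.45 and -0.19, with 0 calls among them. Hepatocyte markers had scores of 13.58 to 14.82, and 0 of 7 passed limma's test (1 at an unadjusted p under 0.05). That 1 was Ttr, the plasma carrier transthyretin, which was lower in every high-fat mouse than in any low-fat mouse (-3.12, adjusted p = 0.224 in limma's test, but 0.000942 without moderation and 0.00394 in the exact rank sum test). Among markers of other cells, 0 of 10 for Kupffer cells and leukocytes, 0 of 5 for endothelium, 0 of 6 for stellate cells (1 at an unadjusted p under 0.05) and 0 of 2 for red cells passed in limma's test, while Krt23 (2.09, 1 of 5 bile duct markers) and Cela1 (1.80, 1 of 3 pancreatic markers) rose and Mylpf (-1.99, 1 of 4 muscle markers) fell. Below 0 lay 3 of the 5 bile duct markers (median -0.11), 1 of the 3 pancreatic markers and 3 of the 4 muscle markers. Over all genes, 17.0% had an unadjusted p under 0.05. The part of these cell types in the ribosomal protein results was not tested.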

How the data were processed

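The authors deposited 1 table of probe set values, which are scores: their level runs like log2 intensities, while their differences between arrays are compressed by amounts that differ between probe sets. The sources used here do not give how probes were summarised and normalised. The test had been planned for log2 values and was kept. A linear model of 1 probe set does not depend on its scale, but the moderation of limma does, since it draws each SD towards a shared prior SD of 7.089e-06, so genes with smaller SDs were called less readily. Precision is limited by the number of arrays, 10 per diet. The table held 0 columns of other samples.

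Gene names came from the platform annotation: 34945 probe sets had 1 symbol, 932 had several, 9160 are unnamed here, and 64 are controls. Each gene was represented by its probe set with the highest mean, with no filter on low values. The two-sided test of diet used lmFit and eBayes of limma 3.58.1 (R 4.3.3) without covariates, with Benjamini-Hochberg adjustment over 18193 genes and a threshold of 0.05. Intervals of standardised differences came from the noncentral t distribution. The fit was tested on simulated data in which genes varied independently, unlike the ribosomal protein genes. It recovered 4% of shifts of 1 SD, 60% of 2 SD and 97% of 3 SD, with 5 false calls. Shifts near 1 SD would thus mostly go uncalled. Promoter sequences and gene positions are RefSeq's on GRCm38.p6.

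Members and gene lists were chosen with earlier results of these data known. Named genes were those past the threshold, the 5 largest and 5 smallest differences and the 3 highest and 3 lowest scores of each subunit, the markers Rpl10a, Rps6 and Rplp0, tissue-restricted paralogues, the genes of each list past the threshold or at most 2 with the smallest adjusted p, and the 5 genes most like Rpl10a. Other genes were named after their values were seen. Replicate numbers of the labels did not pair the mice. Alternatives covered normalisation, centring, covariates, weights, probe set choice, moderation, an exact rank sum test, a threshold of 0.01 and leaving out each mouse.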

Additional observations from a re-analysis of the deposited data

Results flagged for a closer look

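In 7 of the 94 groups checked (10 mice of a diet, 45 genes and both subunit means), 1 mouse lay far from the others of its diet, its gap to the next mouse divided by the range of the group being above 0.466; chance gives about 1 in 20. Low-fat replicate 9 was the lowest for Rps19 (gap 0.636), Rps24 (0.681) and Rps27l (0.615). High-fat replicate 9 was the lowest for Rpl37a (0.542) and Rpl8 (0.495). High-fat replicate 2 was the lowest for Rps4l (0.471), and low-fat replicate 5 was the highest for Rps25 (0.469). None of the 7 genes passed limma's test with or without that mouse. Without it the standardised difference and adjusted p were -0.64 and 0.536 for Rps19, -1.43 and 0.113 for Rps24, -1.25 and 0.153 for Rps27l, -0.44 and 0.732 for Rpl37a, 0.26 and 0.857 for Rpl8, 0.72 and 0.457 for Rps4l, and 1.39 and 0.111 for Rps25.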

How the results depend on the processing

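Where a value below differs from the report, the cause was not tested. Ribosomal protein genes past the threshold numbered 2 in the report, 1 at an adjusted p of 0.01, 1 with the spike-in covariate, 41 with array median centring (all lower), and 0 of the 24 measured by probe sets without shared or alternative targets, where Rpl41 gave 0.289 and Rpl10a has no probe set. Genes of the translation machinery past it numbered 12 in the report, 1 at 0.01, 150 with array median centring, 25 with centring on standardised values, 19 with each probe set on its own and 28 with every gene on 1 scale, an alternative chosen after seeing the data, as was leaving out high-fat replicates 8 and 9. Array median centring put the subunit medians at -1.337 (large) and -1.335 (small), beside -1.29 for all genes. Calls and signs under this centring mostly follow the array medians, which differed by far more than the scores of most ribosomal protein genes.

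Leaving out each mouse in turn gave 2 to 3 ribosomal protein genes, 11 to 15 translation genes and medians of -0.343 to 0.0056 for the large and -0.550 to -0.0576 for the small subunit. Rpl10a and Rpl41 passed in 20 of 20 such fits, with adjusted p of 0.00816 to 0.0276 and 0.000854 to 0.00367 in limma's test; Eif3d and Eif3h passed in 16 of 20. Averaged over its probe sets, Rpl41 gave -1.55 (adjusted p = 0.0691). In the exact rank sum test adjusted p was 0.0389 for Rpl10a and 0.00448 for Rpl41.

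Among genes called in the report or under the alternative, directions turned under quantile normalisation for Ebna1bp2 (-0.645), Eif2b4 (-0.0825), Eif3a (-0.105), Gspt1 (-0.168), Mrpl17 (-0.732), Mrpl24 (-0.600), Rpl12 (-2.22) and Rpl39l (-1.82). They turned under array median centring for Apoa1 (-1.32), Clec4g (-1.07), Ebna1bp2 (-0.957), Eif3a (-0.155), Eif3d (-0.911), Gspt1 (-0.0215), Mrpl17 (-0.796), Mrpl24 (-0.842), Rpl10a (-0.945), Rpl39l (-1.28), Rpl3l (-1.35), Rpl4 (-1.33), Rps18 (-1.32), Rps2 (-1.33), Rps28 (-1.29), Rps6 (-1.26) and Rpsa (-1.21). With genes called in neither included, 17 of 43 genes changed sign under quantile normalisation and 23 of 61 under array median centring, where Rps25, Rpl7l1 and Polr1c were among them. Under all other alternatives 15 of 1985 single-gene values changed sign, and of these Rpl41 without shared or alternative targets was the only called gene.

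Replicate numbers did not pair the mice: same-numbered residuals correlated from -0.159 to 0.26, above 0.1 in 2 of 10 pairs, and 1 of 10 high-fat mice correlated best with its own number. With the replicate number as a block, 2 ribosomal protein genes passed (Rpl10a 2.76, adjusted p = 0.0164; Rpl41 -2.57, adjusted p = 0.0193), the subunit medians were -0.16 and -0.37, and 421 of all genes passed, against 635 without it.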
